A study of Mus musculus with 6 samples.

Results

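The comparison described here set 1 pool of epithelial cells from Pbx mutant mouse embryos against 1 pool from control embryos, both sorted from the dorsal pancreatic bud at E12.5 (embryonic day 12.5). It covers the 11991 of 24062 listed genes that reached 5 CPM (counts scaled for library size) in at least 1 of the 2 libraries. The study sequenced RNA from 6 such pools: epithelium and mesenchyme at E12.5 and epithelium at E14.5, each from both genotypes. Control embryos carried mTmG, a reporter whose cells are red until Cre recombinase turns them green. Of the alleles reported here, the mutant embryos carried mTmG+/-, Nkx2.5-Cre+/- and Pbx2+/-, and the reporter was common to both groups. Nkx2.5-Cre acts in cells that have expressed Nkx2-5, which in this organ are mesenchymal. The control label names neither Cre nor a Pbx allele, so an effect of Cre itself cannot be told apart from that of the Pbx alleles. Each library pooled sorted fractions, and the labels give neither the number of embryos nor how epithelium was told from mesenchyme in control embryos.

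Pbx proteins are homeodomain transcription factors that bind DNA together with Hox and Meis partners. The bud epithelium at this stage is made up largely of progenitors that carry Pdx1, Sox9 and Nkx6-1. Some of them switch on Neurog3, a factor that starts the endocrine program and activates Neurod1, Pax4 and other factors of hormone cells, while Notch signalling between neighbouring cells limits how many do so. The surrounding mesenchyme supplies growth factors and matrix and carries Hox genes and the factors of the splanchnic (gut-wall) mesoderm.

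Each side was 1 library, so the differences carry no replicate check, and nothing was tested. Ratios are given as the level in one library over the other with an exact 95% interval that covers counting error only. Genes count as higher or lower (called) where they differed by at least 2-fold and the interval left out 1. The interval condition removed no gene, since the counts were the same without it. A gene below 5 CPM in 1 library was measured only through the library in which it was high. Its call is a description only, also in the lists below. The control library held 20276045 counts on genes and the mutant-labelled one 14921268. At 5 to 10 CPM the log2 ratios had an SD of 0.77, against 0.19 from counting, and at 100 CPM or more 0.25 against 0.038. The count table of the control library bears another date in its name than the other 5 tables and lacks a mark they share. What the date and the mark stand for is not stated in the labels. Any difference in handling that they stand for cannot be told apart from genotype.

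Pbx2 measured 54.5 CPM (control) against 49.7 CPM (library labelled mutant), a level 1.10-fold lower (interval 1.001 to 1.21). That ratio is far from the 2-fold that loss of 1 transcribed copy would give, so directions below rest on the label, and the library is called mutant-labelled. Nkx2-5, whose locus drives the Cre, was at 0.612 CPM (13 counts) and 3.68 CPM (56 counts), below the 5 CPM needed to be measured. In the mesenchyme libraries Nkx2-5 stood at 41.2 and 66.8 CPM. Pbx2 lies on chromosome 17 from 34591266 to 34597400 (mm10). None of 9 further homeobox genes of the same superclass (Pbx3, Pbx4, Meis1 to Meis3, Pknox1, Pknox2, Tgif1 and Tgif2) was called, and their median log2 ratio was 0.08.

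Both libraries held the markers of epithelium. Epcam, an adhesion protein of epithelial cells, was at 508 and 462 CPM (control and mutant-labelled, the order used from here on), Krt8, a keratin of simple epithelia, at 610 and 528 CPM, and Cdh1 (E-cadherin) at 514 and 353 CPM. Mesenchymal RNA was present too. A list of 30 general mesenchymal genes summed to 6242.5 and 7198 CPM in these epithelial libraries, against 12729 and 11414 CPM in the mesenchyme libraries. All 30 had counts in both epithelial libraries. Genes were therefore split by their level in the 2 E12.5 mesenchyme libraries, which take no part in the ratio. Of the measured genes, 461 were below 1 CPM in both mesenchyme libraries (not found in mesenchyme), 10840 reached 5 CPM in 1 of them (also found in mesenchyme), and 690 lay in between. In bulk RNA, fewer cells of a type and less RNA per cell cannot be told apart.

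Calls fell more often on the lower side. Of all 11991 genes, 215 were higher in the mutant-labelled library (1.79%) and 385 lower (3.21%), so that 35.8% of calls were higher. With ratios taken relative to the general epithelial genes, which moves the median of all genes by 0.19, 381 were higher and 241 lower (61.3% higher). Rfx6, Pax4, Hey1, Glis3, Fgf1, Chrdl1, Col9a3, Ngp, S100a9, Cd53, Robo4, Paip1, Sorl1 and Fam81a, described below as lower, then fell short of 2-fold. Among the 461 genes not found in mesenchyme, 22 were higher (4.77%) and 89 lower (19.3%), with a median log2 ratio of -0.36. The genes in between gave 46 higher (6.67%) and 86 lower (12.5%), with a median of -0.30. Of the 10840 genes also found in mesenchyme, 147 were higher (1.36%) and 210 lower (1.94%), with a median of 0.02. Counts called in the lists below are to be read beside these class shares. Genes not found in mesenchyme were more often at low levels, where 2-fold differences in either direction were commoner in every class. At a mean of 5 to 10 CPM 23.8% of them differed by 2-fold or more, against 14.6% of genes also found in mesenchyme. The class shares of calls are therefore not matched for level. By their medians, genes of epithelium and of other cells absent from mesenchyme were centred below genes shared with mesenchyme. The shared class made up 90.4% of measured genes. Its median near 0 follows largely from the scaling, which sets most genes level. Lcp2 (2.001-fold lower) and Polr2k (2.002-fold higher) lay just inside the 2-fold limit, and Celsr1 (1.9997-fold lower) and Fam53b (1.997-fold lower) just outside. Zbtbd6 at 5.04 CPM and Sult4a1 at 4.99 CPM lay on either side of the level limit.

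**Figure D1:**
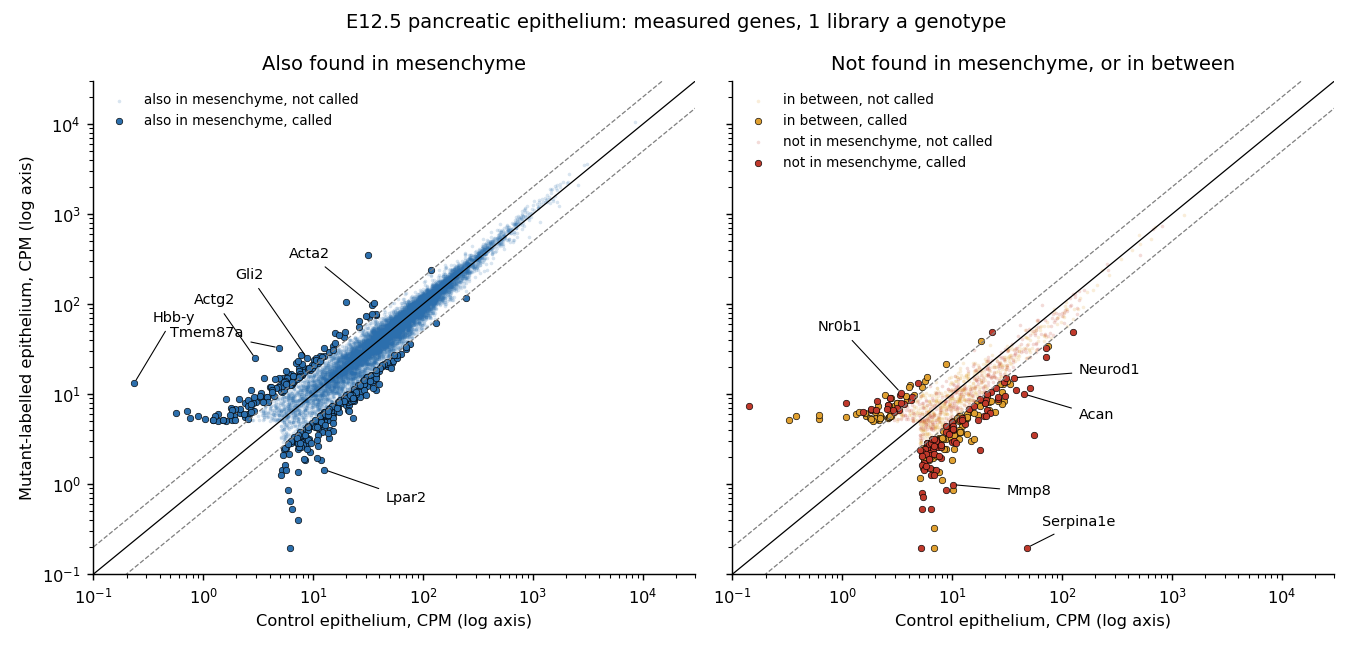
Level of each measured gene in the control (x axis) and the mutant-labelled (y axis) E12.5 epithelium library, in CPM on log axes. Each point is a gene, outlined where called; the solid line marks equal levels and the dashed lines 2-fold. Genes also found in mesenchyme (left) follow the line of equal levels, and genes not found there (right, red) lie mostly below it.

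Transcript length moved with the ratio and touches every count here. When genes were ranked by the length of their longest annotated transcript, the median log2 ratio went from 0.15 in the shortest of 10 equal groups to -0.26 in the longest, and these groups held 23 higher and 18 lower calls against 17 and 91. Genes called lower had a median length of 4548 bases, genes called higher 2998 and the rest 3476. The E12.5 mesenchyme pair showed a like slope (0.30 to -0.14), and the E14.5 epithelium pair did not (-0.10 to -0.03). By GC content the median went from -0.20 in the lowest of 10 groups to 0.13 in the highest. Genes not found in mesenchyme had a median below 0 in each of the 10 length groups, from -0.23 to -0.80. With the medians of the length and GC groups subtracted, an alternative added after the data were seen, 217 genes were higher and 327 lower in all, and 21 and 96 among those not found in mesenchyme. Glis3, Bmpr2, Chrdl1, Itgb8, Barx1, Twist1, Notum, Rspo1, Esam, Nepn, Car2, Xist, Hddc3, Sorl1 and Fam81a, described below among called genes, fell short of 2-fold with that adjustment. The part of RNA quality in these values was not tested.

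**Figure D2:**
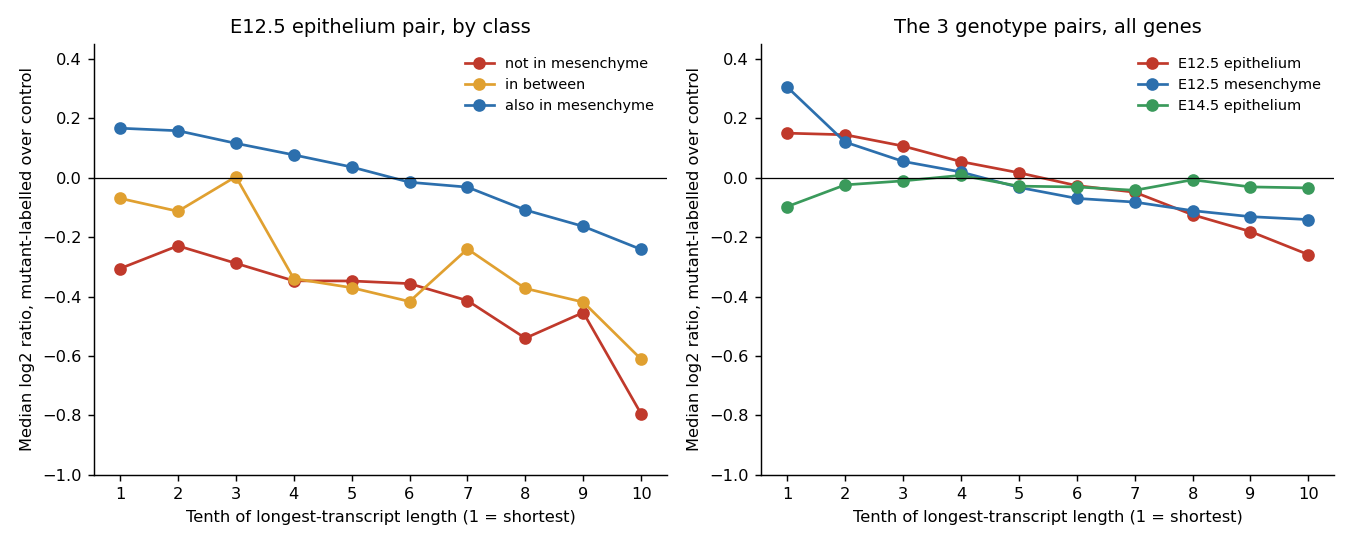
Median log2 ratio (mutant-labelled over control, y axis) in 10 equal groups by longest-transcript length (x axis), for the 3 gene classes in E12.5 epithelium (left) and for all genes in each genotype pair (right). The red line on the left stays below 0 in every group, from -0.23 to -0.80, and both E12.5 pairs on the right slope downward.

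Promoters of the called genes were searched for the joint Pbx-Hox motif TGATNNAT and for the CArG box of serum response factor, the regulator of smooth muscle genes, on both strands in the 250 bases before the RefSeq start (GRCm38.p6). Promoters were matched for 9116 of the 11991 genes. TGATNNAT occurred in 401 of them (4.40%), in 12 of 150 promoters of higher genes (8%) and in 16 of 280 of lower genes (5.71%). The CArG box occurred in 122 (1.34%), 1 (0.667%) and 5 (1.79%). Shown are the promoters of 3 genes described further on that hold TGATNNAT, with the motif in capitals, written along the strand of the gene: Rfx6 (chr10:51685268-51685517, plus strand), Hoxb8 (chr11:96281655-96281904, plus strand) and Gli2 (chr1:119053620-119053869, minus strand). A match describes these letters and does not show binding.
Rfx6: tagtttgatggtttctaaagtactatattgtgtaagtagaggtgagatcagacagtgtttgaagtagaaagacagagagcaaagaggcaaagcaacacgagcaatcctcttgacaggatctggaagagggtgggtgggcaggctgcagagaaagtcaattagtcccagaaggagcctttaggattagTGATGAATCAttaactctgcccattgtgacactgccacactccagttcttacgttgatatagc
Hoxb8: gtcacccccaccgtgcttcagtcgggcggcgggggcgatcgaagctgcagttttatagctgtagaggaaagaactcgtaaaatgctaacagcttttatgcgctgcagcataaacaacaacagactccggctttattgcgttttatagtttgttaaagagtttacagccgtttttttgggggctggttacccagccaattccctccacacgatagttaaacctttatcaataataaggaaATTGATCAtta
Gli2: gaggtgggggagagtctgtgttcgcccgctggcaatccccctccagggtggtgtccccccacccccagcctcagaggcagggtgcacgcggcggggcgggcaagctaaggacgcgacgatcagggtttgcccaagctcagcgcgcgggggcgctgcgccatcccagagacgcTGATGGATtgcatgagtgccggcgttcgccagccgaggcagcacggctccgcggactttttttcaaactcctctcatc
In Rfx6 the capitals cover 2 overlapping matches, 1 on each strand. Rfx6 was lower in the mutant-labelled library, and Hoxb8 and Gli2 were higher.

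Several endocrine transcription factors were lower in the mutant-labelled library. Of 20 measured endocrine transcription factors, 5 were called lower and 0 higher, 16 lay below 0, and the median log2 ratio was -0.42. All 5 were among the 13 members not found in mesenchyme, a class in which 19.3% of genes were lower. Neurod1, a direct target of Neurog3 needed for hormone cell differentiation, was at 36.4 and 15.2 CPM, 2.4-fold lower (2.07 to 2.79). Myt1, a zinc finger factor of the same cascade, was at 7.82 and 2.56 CPM, 3.05-fold lower (2.14 to 4.44). Rfx6, a winged helix factor required for islet cells, was at 20.6 and 9.92 CPM, 2.08-fold lower (1.72 to 2.52). Pax4, a factor of the beta and delta cell lineages, and Mlxipl, which responds to glucose, were the other called members. Pax4 stood at 17.9 and 8.80 CPM and Mlxipl at 10.03 and 4.27 CPM. Of the 5, Myt1 and Mlxipl were measured only through the control library, so their part in the count is a description only. Relative to the general epithelial genes Rfx6 and Pax4 fell short of 2-fold (log2 ratios -0.86 and -0.83).

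Neurog3 itself was at 82.8 and 45.5 CPM, 1.82-fold lower (1.66 to 1.99), short of the 2-fold call. It passed with the length and GC adjustment (2.08-fold). The 5 called factors and Neurog3 were all below 1 CPM in both mesenchyme libraries, and the 13 such members had a median log2 ratio of -0.80, against -0.36 for their whole class. Of the other 7 members 3 lay above 0. Among these, Isl1, a factor of hormone cells that other tissues express too, was at 81.5 and 101 CPM. At E14.5 none of the 5 factors was called lower: Neurod1 stood there at 73.9 and 76.3 CPM and Neurog3 at 187 and 223 CPM.

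The most abundant hormone genes were nearly level. Gcg, which encodes glucagon, was at 802 and 741 CPM (1.08-fold, 1.06 to 1.11), and Pyy, which encodes peptide YY, at 130 and 128 CPM. Cck (13.5 and 7.03 CPM) and Iapp (17.4 and 10.1 CPM) lay lower without reaching 2-fold. None of the 6 measured hormone genes was called, and their median was -0.31. The insulin genes were not measurable at this stage, with Ins1 at 36 and 18 counts and Ins2 at 18 and 8. Among 25 genes of secretory granules and exocytosis, Scg2 (5.28 and 0.788 CPM, a granin, 6.69-fold lower, 3.68 to 13.3) and Scgn (7.82 and 2.69 CPM, a calcium sensor) were lower, and Scg5, a chaperone of prohormone convertase 2, was higher (5.32 and 11.9 CPM). Scg2 and Scgn were measured only through the control library. They were among 10 members not found in mesenchyme (19.3% of that class lower), and Scg5 among 3 in between (6.67% higher).

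None of the 18 measured progenitor factors was called, and all 18 had a log2 ratio below 0, with a median of -0.45. Nkx6-1, a factor of trunk progenitors and beta cells, was at 136 and 78.1 CPM (1.75-fold lower, 1.63 to 1.87), and Onecut1, which acts upstream of Neurog3, at 103 and 61.0 CPM (1.69-fold, 1.56 to 1.82). Pdx1, required for the growth of the whole bud, was at 99.5 and 72.9 CPM, and Sox9, which maintains the progenitor pool, at 656 and 493 CPM. The smallest differences were those of Ptf1a (51.3 and 45.3 CPM), the acinar and early progenitor factor, and Nkx6-2 (20.6 and 19.2 CPM). These ratios must be read beside the general epithelial genes, of which all 28 measured members were below 0 too, with a median of -0.19. Relative to that median, the progenitor median was -0.26, and Ptf1a and Nkx6-2 lay above 0.

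Markers of the later lineages gave few calls. None of 14 acinar genes was called, 10 lay below 0 (median -0.23), and Cpa1, a carboxypeptidase that marks the multipotent tips, was at 700 and 698 CPM. Of 19 ductal and trunk genes 17 lay below 0 (median -0.39), 2 were called lower and 1 higher. All these calls were among 5 members in between, a class in which 12.5% of genes were lower and 6.67% higher. Slc4a4, a bicarbonate transporter of duct cells, was 2.53-fold lower (19.97 and 7.88 CPM, 2.06 to 3.13), and Glis3, a factor of ducts and beta cells, 2.27-fold lower (13.6 and 5.98 CPM); Glis3 was at 1.94-fold with the length and GC adjustment. The higher gene was Car2, a carbonic anhydrase (2.59 and 5.39 CPM, 2.08-fold), which was called higher at E14.5 as well. The mucin Muc1 was at 59.5 and 31.8 CPM. Genes of bud outgrowth, such as Sox11, Hmga2 and Etv5, had 9 of 17 above 0, no call and a median of 0.09.

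**Figure D3:**
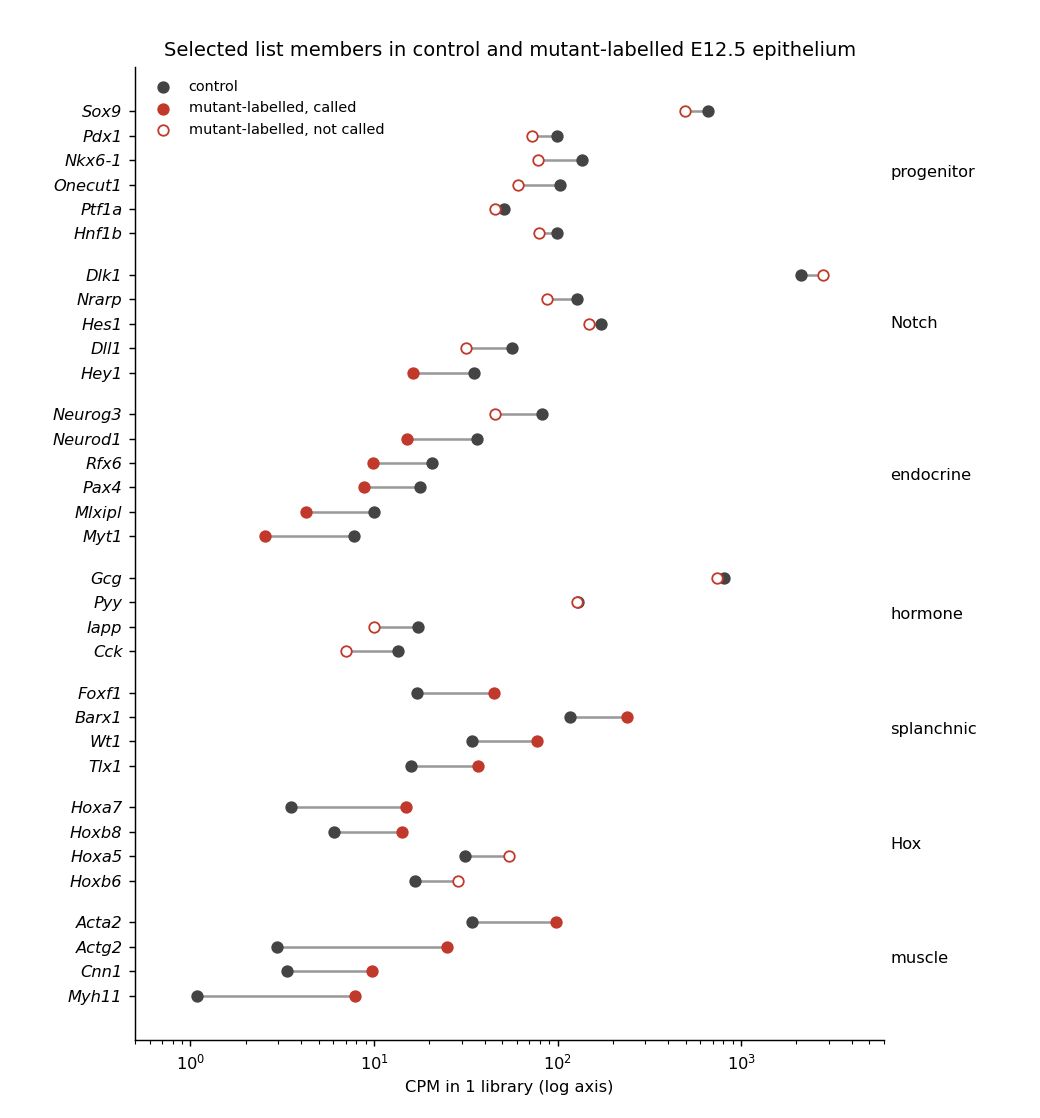
Level (CPM, log axis) of selected list members in the control (black) and mutant-labelled (red) E12.5 epithelium library, 1 library each; filled red points are called. Progenitor, Notch and endocrine genes lie to the left of their control points except Dlk1, and splanchnic, Hox and smooth muscle genes to the right.

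Genes of the Notch pathway, through which neighbouring cells restrain Neurog3, had a median log2 ratio of -0.45 with 16 of 22 measured members below 0. Only Hey1 was called, a transcriptional repressor activated by Notch, at 34.9 and 16.3 CPM (2.14-fold lower, 1.85 to 2.48), and its log2 ratio relative to the general epithelial genes was -0.90. Of the ligands, Dll1, which Neurog3-positive cells carry, was at 56.6 and 31.6 CPM (1.79-fold lower, 1.61 to 1.995) and Jag1 at 117 and 85.7 CPM. The receptors Notch1 (103 and 61.4 CPM) and Notch2 (95.4 and 54.1 CPM) lay lower as well, and Hes1, the main Notch target in progenitors, was nearly level at 173 and 148 CPM. With the length and GC adjustment the median was -0.36.

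Signals between mesenchyme and epithelium gave few calls. Fgf10, the mesenchymal growth factor that keeps progenitors dividing, was at 8.01 and 5.45 CPM, and its epithelial receptor gene Fgfr2, counted over all isoforms, at 184 and 111 CPM (1.65-fold lower, 1.56 to 1.75). Fgf1 was the single FGF gene called of 21, at 6.26 and 2.89 CPM, among 20 members also found in mesenchyme (1.94% of that class lower). Of 33 Wnt pathway genes 4 were higher and 0 lower. All 4 were among 29 members also found in mesenchyme, a class in which 1.36% of genes were higher. They were the inhibitors Sfrp2 (35.4 and 104 CPM, 2.93-fold, 2.69 to 3.20) and Notum, the Dickkopf family gene Dkk3 and the enhancer Rspo1. Gli2, the main activator among Hedgehog-regulated factors, was at 8.81 and 24.97 CPM (2.83-fold higher, 2.37 to 3.40), while Ptch1, the receptor and target gene of the pathway, was at 13.2 and 7.82 CPM. Shh, the ligand that early pancreatic epithelium silences, had 0 counts in the control and 51 in the mutant-labelled library (3.35 CPM). With the control set to 3 counts the ratio was 23.7-fold higher, and the lower end of the interval was 18.6-fold. Shh did not reach 5 CPM and was not called.

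Genes of the BMP and TGF-beta pathways differed in both directions, with 29 measured and a median of 0.02. The BMP antagonist Nog was higher (2.78 and 8.94 CPM, 3.22-fold, 2.35 to 4.44). The receptor Bmpr2 (30.7 and 13.3 CPM) and the antagonist Chrdl1 (10.22 and 5.06 CPM) were lower. In the retinoic acid list Crabp2, an intracellular retinoic acid carrier, was the 1 gene called of 15 (10.1 and 24.0 CPM, 2.37-fold higher). Kazald1, an IGF-binding protein relative, was the 1 called of 19 in the IGF list (7.82 and 26.9 CPM, 3.44-fold higher, 2.86 to 4.14). Crabp2 was among 14 members of its list also found in mesenchyme and Kazald1 among 16. Of that class 1.36% were higher.

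Acan, which encodes the proteoglycan aggrecan, was at 45.2 and 9.99 CPM (4.53-fold lower, 3.81 to 5.41), and was called lower at E14.5 too (34.5 and 5.96 CPM). It was below 1 CPM in both mesenchyme libraries. Col9a3 (75.03 and 34.1 CPM) and Col11a2 (21.5 and 8.15 CPM) were the 2 collagens called of 33. Both were among 4 members in between (12.5% of that class lower). Neither was called at E14.5 (85.3 and 59.5 CPM for Col9a3, 21.6 and 20.1 CPM for Col11a2). Other genes known from cartilage, looked up after these values were seen, were not called. Of these, Col2a1 was at 245 and 139 CPM, Col9a1 at 68.2 and 38.9 and Hapln1 at 19.8 and 10.5. Nearer to level were Col9a2 at 116.9 and 135 CPM, Col11a1 at 29.5 and 34.8 and Matn4 at 69.4 and 66.8. Sox5 was at 34.4 and 32.7 CPM and Sox6 at 47.7 and 41.3. Itgb6 (10.8 and 2.83 CPM) and Itgb8 (6.22 and 2.43 CPM), subunits of the integrins that activate TGF-beta, were the 2 called of 31 in the laminin and integrin list. Itgb6 was among 2 members not found in mesenchyme (19.3% of that class lower) and Itgb8 among 5 in between (12.5%).

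Hox genes, which mesenchyme carries, were among the genes higher in the mutant-labelled library. All 14 measured Hox genes lay above 0, with a median log2 ratio of 1.02, and 7 were called; of all genes also found in mesenchyme, to which the 14 belong, 1.36% were higher. Hoxa7 was at 3.53 and 14.9 CPM (4.22-fold, 3.24 to 5.56), Hoxa3 at 7.44 and 19.4 CPM, Hoxb2 at 32.4 and 71.0 CPM and Hoxb8 at 6.03 and 14.1 CPM. Hox proteins set position along the body axis and are partners of Pbx on DNA. Of 39 listed Hox genes 25 did not reach 5 CPM, among them Hoxd3, which was lower (4.95 and 3.55 CPM). A gene near this limit enters through the library in which it is high, so the count over measured members is a description only. Overlapping Hox transcripts and their antisense partners cannot be told apart here, since the use of strand in counting is not stated.

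Splanchnic factors shifted in the same direction, with 5 of 21 called higher, 0 lower and a median of 0.59. Of the 5, 4 were among 19 members also found in mesenchyme (1.36% of that class higher). The other, Pitx1, was among 2 in between (6.67%), which together were at 2.35 and 2.25 CPM in mesenchyme. Pitx1, a hindlimb and gut factor, was at 0.612 and 5.78 CPM (9.44-fold, 5.25 to 18.4). It was measured only through the mutant-labelled library, so its call is a description only. Foxf1, the forkhead factor of gut mesoderm, was at 17.2 and 45.1 CPM (2.61-fold, 2.30 to 2.98). Wt1, a mesothelial factor, was at 34.1 and 76.8 CPM, Tlx1, a factor of the spleen primordium next to the dorsal bud, at 15.9 and 36.7 CPM, and Barx1, of stomach mesenchyme, at 117 and 239 CPM. Barx1 was 1.76-fold higher with the length and GC adjustment. General mesenchymal genes moved less: 2 of 26 (Twist1 and Twist2) were called, the median was 0.22 and Vim stood at 426 and 499 CPM. The share of mesenchymal cells in each sorted pool was not tested as a source of these values.

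Smooth muscle genes stood out by size. Actg2, the enteric smooth muscle actin, was at 2.97 and 24.97 CPM (8.41-fold higher, 6.43 to 11.2), Acta2 at 34.1 and 97.8 CPM (2.87-fold, 2.63 to 3.14), Cnn1, which encodes calponin, at 3.34 and 9.72 CPM and the myosin heavy chain gene Myh11 at 1.08 and 7.88 CPM. Of the 4, Actg2, Cnn1 and Myh11 were measured only through the mutant-labelled library, so their count is a description only. Synpo2, an actin-bundling protein of muscle, went the other way (8.95 and 3.09 CPM). The list held 17 measured genes, 4 higher and 1 lower (1.79% and 3.21% of all genes), with a median of 0.43. Acta2 was lower in mesenchyme than in the mutant-labelled epithelium, at 26.8 and 23.0 CPM, and Cnn1 and Myh11 were below 1 CPM in both mesenchyme libraries. These 2 genes are therefore counted in the class not found in mesenchyme although they are known as smooth muscle genes. At E14.5 the 4 genes were called higher again, Acta2 at 36.6 and 287 CPM.

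**Figure D4:**
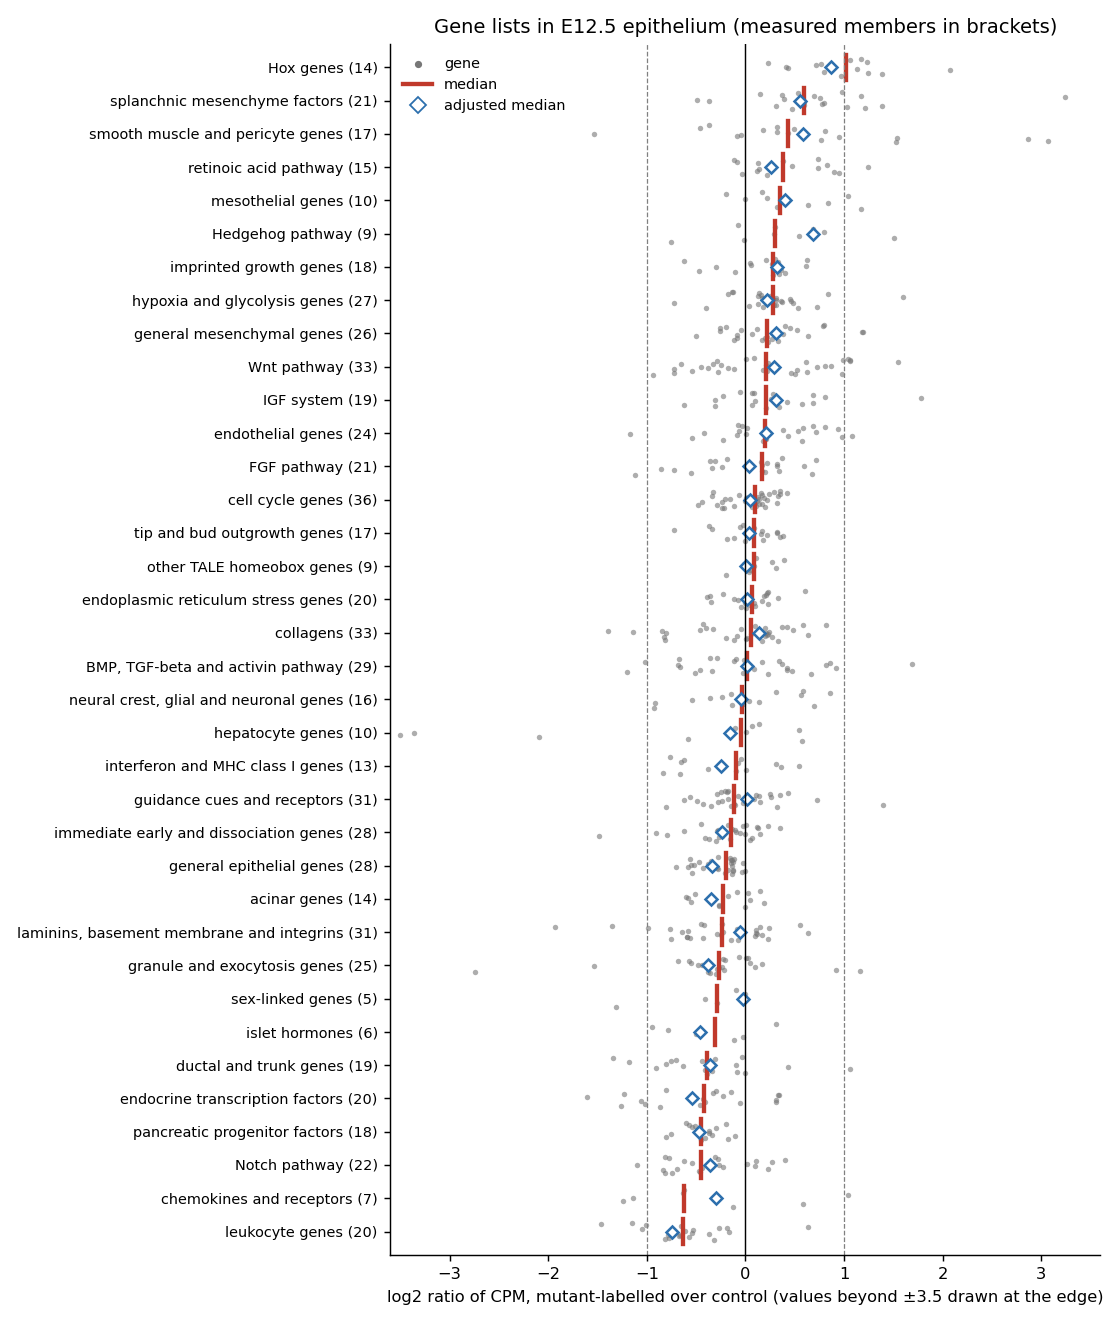
log2 ratio (mutant-labelled over control, x axis) of the measured members of each list with at least 5 of them. Grey points are genes, red bars list medians and open diamonds medians after the length and GC adjustment; dashed lines mark 2-fold. Hox, splanchnic and smooth muscle lists stand at the top (medians 1.02, 0.59 and 0.43) and leukocyte, chemokine, Notch and progenitor lists at the bottom.

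Markers of blood cells differed too. Of 20 leukocyte genes 19 lay below 0 and 4 were called lower: Ltf (71.5 and 25.9 CPM) and Ngp (71.3 and 32.1 CPM), proteins of neutrophil granules, S100a9 and the surface protein gene Cd53. Of the 4, 3 were among 7 members not found in mesenchyme (19.3% of that class lower) and 1 among 6 in between (12.5%). The 23 list members present in the tables summed to 786 and 488 CPM. Outside these counts, leading lower genes included Emr1, a macrophage surface receptor (29.4 and 8.34 CPM), Cybb, an oxidase subunit of phagocytes (14.9 and 3.02 CPM), and the neutrophil collagenase Mmp8 (10.1 and 0.986 CPM). These genes were picked after their values were seen. Emr1 was listed under its newer symbol Adgre1, which found no match, so the list counts and sum lack it. Endothelial markers had a median of 0.20 with 1 of 24 higher (Esam) and 1 lower (Robo4). Both were among 7 members in between (6.67% of that class higher and 12.5% lower). The embryonic globin Hbb-y was at 0.235 CPM (5 counts) and 13.3 CPM (202 counts), and Hba-x at 2 and 48 counts. Of 13 listed erythroid genes only Hbb-y was measured, through the mutant-labelled library alone. The 13 summed to 8.38 and 22.9 CPM, and the members other than Hbb-y and Hba-x together lay lower in the mutant-labelled library. The part of these cells in the class counts was not tested beyond leaving their matched markers out, which kept Emr1: 207 genes were then higher and 375 lower.

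The gene with the largest difference was Serpina1e, at 48.1 and 0.197 CPM (3 counts), 244-fold lower (83.3 to 1186). Serpina1 genes encode alpha-1-antitrypsin, a secreted protease inhibitor made mainly in liver, and lie in a cluster of near-identical copies on chromosome 12, where Serpina1e spans 103946931 to 103958975. Serpina1c (55.5 and 3.48 CPM), Serpina1d (8.81 and 0.854 CPM) and Serpina1b (50.5 and 11.8 CPM) were called lower as well, and Serpina1a was at 9.66 and 6.44 CPM. Reads of such copies can be assigned to one another, so their split is uncertain. Of 10 measured genes in the hepatocyte list, these Serpina1 genes were the 3 called. All 3 were among 8 members not found in mesenchyme, a class in which 19.3% of genes were lower. Afp, the fetal liver protein, was at 64.9 and 96.5 CPM and Rbp4 at 256 and 281 CPM. At E14.5 Serpina1e was 2.66-fold higher and Serpina1c 2.03-fold higher.

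Other leading genes fell into no list. Among genes not found in mesenchyme, Rasef (17.8 and 2.37 CPM), the myosin gene Myh14 (38.1 and 11.2 CPM), Plch1, Sim1 and the synaptic gene Pclo were lower, and Nr0b1 (3.39 and 10.38 CPM, 3.06-fold), an orphan nuclear receptor, Ushbp1 and Nepn were higher. Among genes also found in mesenchyme, Lpar2, a lysophosphatidic acid receptor, was at 12.6 and 1.45 CPM (8.73-fold lower, 5.65 to 14.2) and Emilin2, an elastic fibre protein, at 11.7 and 1.84 CPM. Tmem87a (4.85 and 32.7 CPM, 6.73-fold higher, 5.43 to 8.41), Eno1b (19.8 and 105.9 CPM), which is near-identical to Eno1, Prdm6 (2.73 and 10.97 CPM) and the matrix protein gene Cthrc1 (15.9 and 47.8 CPM) were higher. Xist, which is active in female cells, was at 37.6 and 15.2 CPM, and the Y-linked Eif2s3y was at 60.9 CPM in both. All 5 measured sex-linked genes had a log2 ratio below 0, from -1.31 to -0.001. Their median was -0.29, and -0.03 with the length and GC adjustment. The part of the sex makeup of the pools in other values was not tested.

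Broader programs showed no calls or single ones. Of 36 cell cycle genes none was called (median 0.10), and of 20 genes of endoplasmic reticulum stress none (0.07). Hypoxia and glycolysis genes had a median of 0.28, with 22 of 27 above 0; Ldha, the enzyme that makes lactate, was at 888 CPM in the control and 1.37-fold higher, and Egln3, an oxygen sensor, was called (1.88 and 5.72 CPM). Among 28 immediate early genes, which respond to tissue dissociation, Egr2 was lower (21.3 and 7.62 CPM) and the median was -0.15.

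The 2 other genotype pairs share no library with this one. In E12.5 mesenchyme, of the 147 higher genes measured there 22 were higher, 15.0% against a background of 1.49%, and 16 were lower, 10.9% against 2.92%. Of 210 lower genes 29 were lower there (13.8%) and 4 higher. In E14.5 epithelium, of 157 higher genes measured there 77 were higher, 49.0% against 8.6%, and 10 were lower. The share was 58.1% for those also found in mesenchyme. Of 301 lower genes 65 were lower at E14.5 (21.6% against 5.47%) and 36 higher. Within the class not found in mesenchyme, 22 of 64 lower genes were lower at E14.5, 34.4%, while 37.0% of all 386 genes of that class measured there were. Many genes shared with mesenchyme were thus higher at both stages, and the difference between the last 2 shares was not tested.

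In all 3 pairs 9 genes were higher and 4 lower, out of 22 higher and 29 lower in both E12.5 pairs. Of 11586 genes measured in both epithelium pairs, 8.6% were higher at E14.5 and 5.47% lower. The overlap that these shares alone would give was not computed. Tlx1, Hoxb8, Kazald1, Cthrc1, Tmem87a, Wdfy1, Hddc3, Lhfpl1 and Gm1821 were higher, and Lpar2, Sorl1, Paip1 and Fam81a lower. Gm1821, an unnamed model, was at 31.3 and 350 CPM here, 11.2-fold higher.

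**Figure D5:**
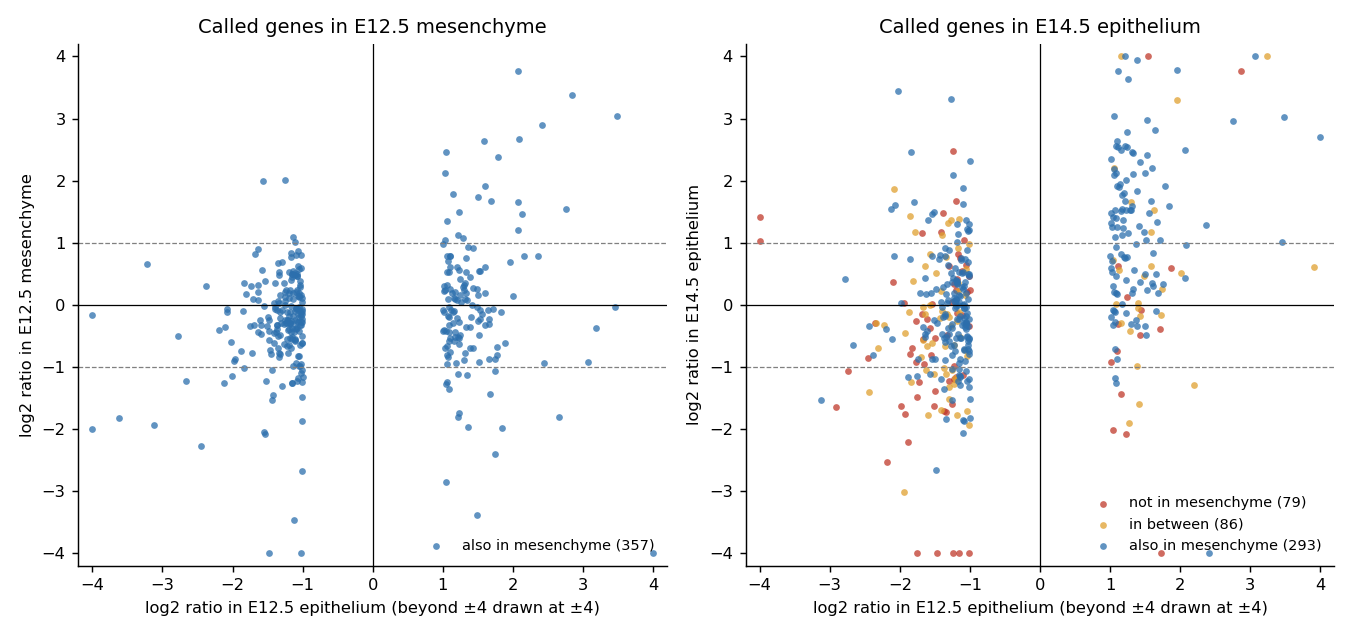
Genes called in E12.5 epithelium (x axis, log2 ratio there) against their log2 ratio in the E12.5 mesenchyme pair (left) or the E14.5 epithelium pair (right), for genes at 5 CPM or more in those pairs; dashed lines mark 2-fold. On the right, 77 of the higher genes lie above the upper dashed line, and lower genes spread to both sides of 0.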

How the data were processed

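RNA of pooled, sorted dorsal bud cells was sequenced in 6 libraries, 1 per group. The authors deposited raw counts per gene, deduplicated per the names of the tables. The submitters' processing notes name mm10, Cufflinks 2.2.1 and Cuffdiff 2.2.1; aligner, counter, annotation and strand use: not given in the sources used here. Deduplication lowers counts of very abundant genes. The 5 summary lines of each table were left out: reads assigned to no gene were 7.43% and 6.14% of the 2 libraries, and reads at several places 18.2% and 18.9%.

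CPM used TMM factors over all 6 libraries (edgeR 4.0.16, R 4.3.3). Ratios of 2 libraries carry exact binomial 95% intervals, which cover counting error only, since each group had 1 library. Without molecular identifiers, reads left after deduplication may still be copies of 1 molecule. A 0 was set to 3 counts. Genes were measured at 5 CPM, called at 2-fold, and called not found in mesenchyme below 1 CPM. Transcript lengths and positions came from GENCODE M21, with lengths for 11942 of 11991 genes. The calculation was tested on simulated data. Python 3.11.15, pandas 2.3.3 and scipy 1.17.1 were used.

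Members and the 39 gene lists were chosen with earlier results of these data known. The rule named Pbx2 and Nkx2-5, for each class 12 higher and 12 lower genes at 10 CPM or more, ranked by the end of the fold's interval closest to 1 (unnamed models, microRNA, snoRNA and sex-linked genes left out), at most 8 genes per list by that rank, and 12 genes of the pancreatic program. The text prints some of these, a choice made with the values known. Gm1821, Xist, the sex-linked and globin genes, Sorl1, Paip1, Fam81a and others shared by all pairs, the threshold examples and some list members fall outside it. Some alleles and genes are not reported here. Alternatives were DESeq2 1.42.0 size factors, plain CPM, ratios relative to general epithelial genes, thinning, other limits, and, chosen after seeing the data, length and GC adjustment and markers left out.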

Additional observations from a re-analysis of the deposited data

Results flagged for a closer look

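Of 57 leading genes called in E12.5 epithelium and considered here, 10 were called in the opposite direction in another genotype pair. Among all called genes measured at E14.5, 10 of 157 higher genes were lower there and 36 of 301 lower genes were higher. For E12.5 mesenchyme these counts were 16 of 147 and 4 of 210. The differences between pairs were not tested. In E14.5 epithelium the log2 ratio was 1.41 for Serpina1e (-7.93 at E12.5), 1.02 for Serpina1c (-3.995) and -4.25 for Eno1b (2.42), a glycolytic gene near-identical to Eno1. It was 1.55 for Enpp3 (-2.12), 1.61 for the protocadherin Pcdhb17 (-2.07) and -1.90 for Pm20d1 (1.28). The macrophage genes Fcgr1 and P2ry6 stood at 1.86 (-2.08) and 1.43 (-1.85). In E12.5 mesenchyme the log2 ratio was -6.17 for the globin Hbb-y (5.82 in epithelium) and -1.43 for Penk, which encodes enkephalin (1.67).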

How the results depend on the processing

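No paired analysis was possible because each group had 1 library. For the same reason no library could be left out, and depth limits genes near 5 CPM most. Counts below run in the order higher, lower for all genes, then for genes not found in mesenchyme, then for genes also found there, with those within 1.5 times the reported count left out. With a minimum of 1 CPM they were 713 and 944, then 268 and 417. With a minimum of 20 CPM they were 44 and 122, then 1 and 21, then 41 and 87. With no minimum they were 1080 and 1296, then 579 and 728. At 1.5-fold they were 721 and 1260, then 42 and 168, then 582 and 884. At 4-fold they were 30 and 43, then 4 and 16, then 18 and 16. Relative to general epithelial genes they were 381 and 241, and 277 and 107 for genes also found in mesenchyme. Genes not found in mesenchyme and higher numbered 12 with a limit of 0.5 CPM there and 36 with 2 CPM. Genes also found there and lower numbered 137 with a limit of 10 CPM. DESeq2 size factors (214 and 391), plain CPM (206 and 425), thinning (222 and 382), the length and GC adjustment and leaving out markers of other cell types stayed within 1.5 times. Of the called genes among 325 recomputed, none changed direction; 39 gene values fell below the threshold and 38 passed it. Of 36 list medians, 6 changed sign in 1 setting or more, none of them beyond 0.15 in size as reported. Relative to general epithelial genes 5 did: hepatocyte (-0.05 to 0.15), neural (-0.04 to 0.16), guidance (-0.12 to 0.07), immediate early (-0.15 to 0.04) and interferon genes (-0.09 to 0.10). With the length and GC adjustment guidance stood at 0.02, and the BMP median (0.02) went below 0 by 0.02 or less in 3 settings. In 82 of the recomputed list medians the value moved by over 0.1. The causes were not tested.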

Other observations

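Of 18 imprinted growth genes, which set fetal growth, none was called, 14 lay above 0 and the median log2 ratio was 0.28. Ribosomal protein genes lay above 0 in 71 of 73 cases with a median of 0.17, which was 0.02 after the length and GC adjustment. The 31 guidance cues and receptors had a median of -0.12, and Sema4a was the single call (5.89 and 15.4 CPM). Of 13 interferon and MHC class I genes none was called (median -0.09).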
